A study of Mus musculus with 10 samples.

Results

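The mitochondrial ribosomal protein genes described here are the 78 rows, of 22255 in the gene table, whose symbol is Mrpl or Mrps followed by a digit. Counts were measured by RNA sequencing of hippocampal synaptoneurosomes, a fraction of brain tissue enriched for pinched-off synaptic endings, from wild-type C57Bl/6J mice. There were 2 groups of 5 libraries, 1 given vehicle and 1 given AM6545 sub-chronically; AM6545 is a cannabinoid CB1 receptor antagonist that enters the brain poorly. The dose, the length of treatment, the age and sex of the mice, and whether libraries are from single animals or pooled ones are not given in the sources used here, so p-values measure the spread between libraries, which may be partly technical. The libraries held 18106112 to 25899794 estimated counts each, and the 12 markers of synapses and hippocampal neurons checked were all above the filter on low counts, with none at 0 in any library.

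Mitochondria keep a small genome whose protein-coding genes all specify subunits of the respiratory chain and of ATP synthase, and those proteins are made inside the organelle on its own ribosome, the mitoribosome. Its ribosomal RNAs come from mitochondrial DNA, but every protein of its large and small subunits is encoded in the nucleus, made on cytoplasmic ribosomes and imported. Some of these proteins have bacterial counterparts and others are found only in mitoribosomes, where they largely surround the smaller RNA core. Transcripts of nuclear genes for mitochondrial proteins are among those known to occur in neuronal processes.

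By role, 29 members encode large-subunit proteins with bacterial counterparts, 21 encode large-subunit proteins particular to mitochondria, 15 encode small-subunit proteins with bacterial counterparts and 10 encode small-subunit proteins particular to mitochondria. The symbols do not always give the subunit: Mrps30 and Mrps18a, named as small-subunit genes, encode proteins of the large subunit and were counted there. Mrpl55 and Mrps28 were placed by subunit only, which gave 51 large-subunit and 26 small-subunit genes. Mrps36 was kept as a member by its symbol, although its product is now known as a component of the 2-oxoglutarate dehydrogenase complex. All 78 members passed the filter on low counts, with 130 to 2846 counts in any 1 library.

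Mitoribosomal protein mRNAs stood above most tested genes and below most cytoplasmic ribosomal protein genes in level per length. Levels per length are given in TPM, a scale on which genes can be compared. Each transcript count was divided by transcript length and summed by gene. These rates were then scaled to the same total in every library. The median member level was 71.1 TPM, with a range from 17.0 for Mrpl1 to 181.0 for Mrpl42. The lower quartile of the members, 52.7, lay above the upper quartile of all tested genes, 49.0. The median over all tested genes on this scale was 15.1, that of 80 cytoplasmic ribosomal protein genes was 153.9, that of 84 nuclear genes for oxidative phosphorylation subunits was 322.9, and that of the 13 protein genes of mitochondrial DNA was 5690. The 51 large-subunit genes had a median level per length of 72.7 and the 26 small-subunit genes 69.4. The ratio of these subunit medians, taken library by library, lay between 0.978 in vehicle replicate 1 and 1.15 in vehicle replicate 2.

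**Figure D1:**
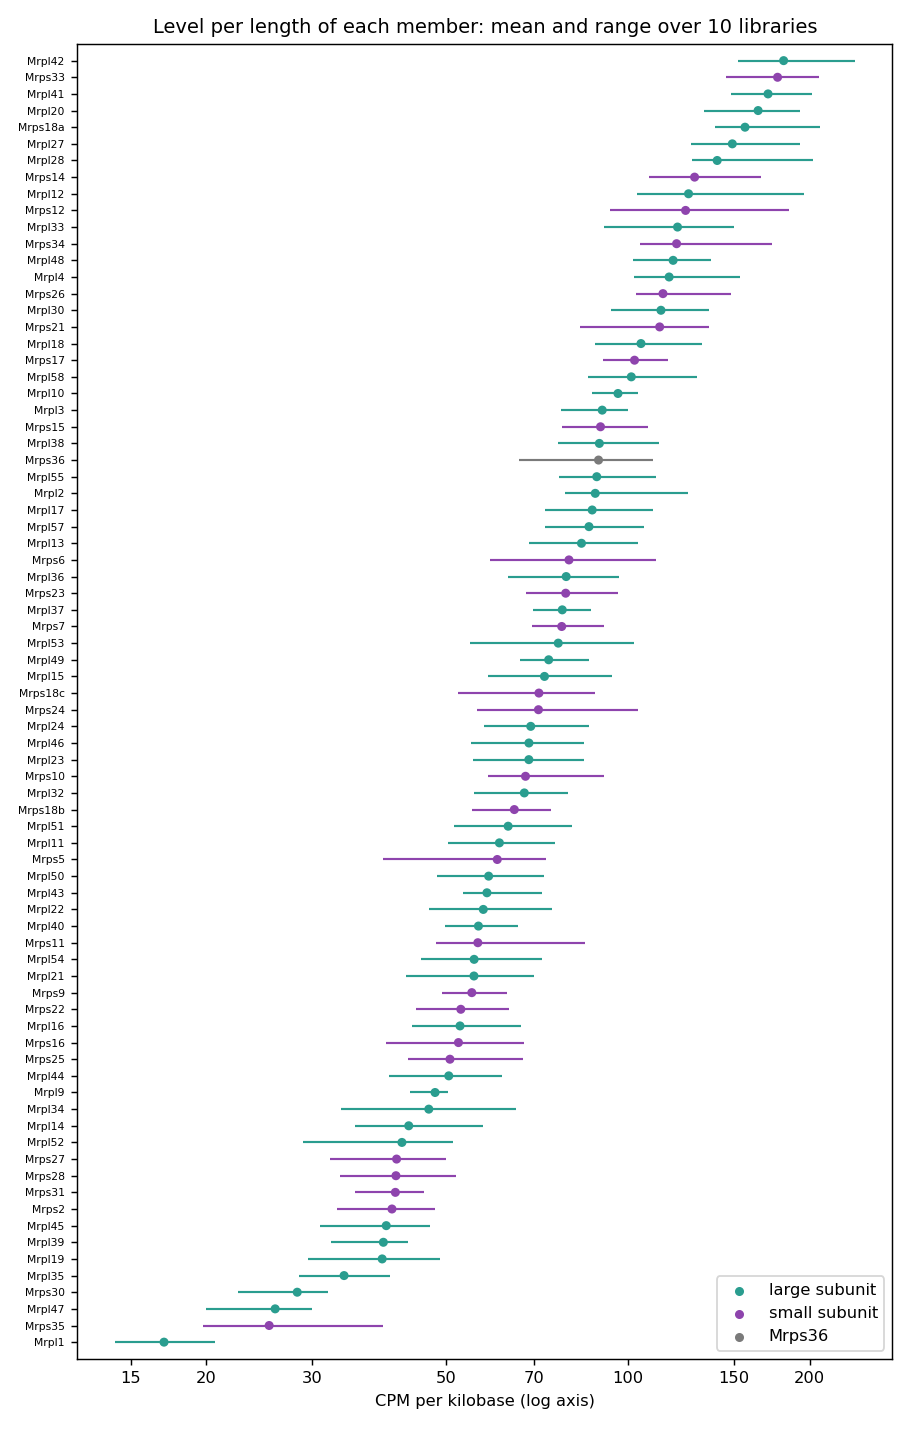
Level per length of each of the 78 genes in TPM (log axis), as the mean (point) and the range (line) over the 10 libraries. The axis is labelled CPM per kilobase, but the values drawn are the TPM of the text. Colours give the subunit of the product. Mrpl42, Mrps33 and Mrpl41 stand at the top and Mrps35 and Mrpl1 at the bottom, with large- and small-subunit genes mixed along the whole order.

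The 6 highest members per length were Mrpl42, Mrps33, Mrpl41, Mrpl20, Mrps18a and Mrpl27. Mrpl42, Mrps33 and Mrpl41 encode proteins particular to mitochondria, while Mrpl20 and Mrpl27 encode counterparts of bacterial proteins, Mrpl27 lying near the site of peptide bond formation. Vehicle libraries gave Mrpl42 a level per length of 187 ± 30 and AM6545 libraries 175 ± 21 (SD, n = 5 each), and that of Mrps33 was 177 ± 18 and 176 ± 29, so the first and second of the order differed by less than their spread. Mrpl41 had 167 ± 18 and 175 ± 19, Mrpl20 had 167 ± 17 and 162 ± 21, Mrps18a had 161 ± 27 and 151 ± 12, and Mrpl27 had 155 ± 22 and 143 ± 18 (SD, n = 5 each) on the same scale. Each of these neighbours lay within the spread of the next.

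The 6 lowest were Mrpl1, Mrps35, Mrpl47, Mrps30, Mrpl35 and Mrpl19. Mrpl1 encodes the protein of the mobile stalk beside the exit site for transfer RNA, and its level per length, 16.6 ± 1.4 with vehicle and 17.5 ± 2.5 with AM6545 (SD, n = 5 each), lay below the 23.4 ± 2.8 and 27.5 ± 7.6 of Mrps35. Mrpl47, which encodes a protein at the mouth of the exit tunnel for the new peptide, had 26.7 ± 4.0 and 25.4 ± 2.6, and Mrps30 had 27.6 ± 3.6 and 29.0 ± 3.7 on this scale, within the spread of Mrps35. Mrpl35 stood at 33.6 ± 2.8 and 34.1 ± 5.1 and Mrpl19 at 40.4 ± 5.1 and 37.9 ± 6.9 (SD, n = 5 each). The order depends on which transcripts are taken as the source of the reads: with 1 length per gene, that of its longest transcript, the median member level was 56.6 and Mrpl42 moved from rank 1 to rank 51.

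Together the 78 genes held 0.461, 0.323, 0.337, 0.353 and 0.352% of all counts in vehicle replicates 1 to 5 and 0.318, 0.379, 0.337, 0.322 and 0.381% in AM6545 replicates 1 to 5. Vehicle replicate 1 lay above all other libraries, and the other 4 vehicle values fell inside the AM6545 range. The group means were 0.365 ± 0.0550% and 0.347 ± 0.0306% (SD, n = 5 each), a difference smaller than either SD. Without vehicle replicate 1 the vehicle mean was 0.341 ± 0.0144% (SD, n = 4), on the other side of the AM6545 mean.

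The members moved together from library to library. Vehicle replicate 1 was the highest of the 10 libraries for 70 of the 78 genes, against 25.1% of all tested genes. Vehicle replicate 2 was the lowest for 35 members, against 13.2% of all tested genes, and AM6545 replicate 1 was the lowest for 25. The median member deviation from each gene's mean over the 10 libraries, in log2 CPM normalised by TMM, was 0.47 in vehicle replicate 1, -0.23 in vehicle replicate 2 and -0.05, 0.04 and -0.04 in vehicle replicates 3 to 5. In AM6545 replicates 1 to 5 it was -0.15, 0.14, -0.08, -0.14 and 0.05, so both groups held libraries on either side of 0. The medians of the large- and small-subunit genes were 0.48 and 0.46 in vehicle replicate 1 and lay furthest apart in vehicle replicate 2, at -0.20 and -0.30; this difference was not tested.

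**Figure D2:**
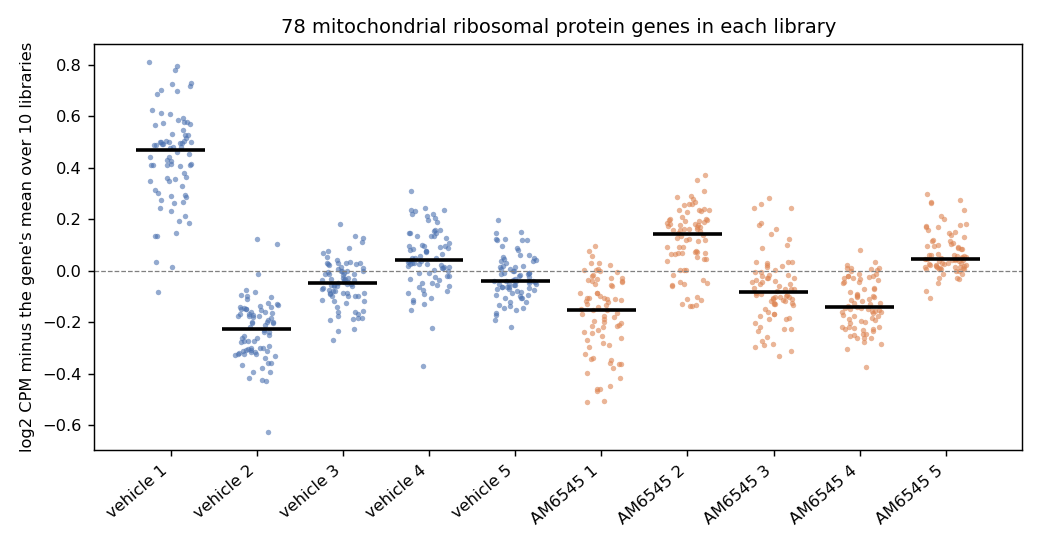
Each point is 1 of the 78 genes in 1 library, as its log2 CPM minus that gene's mean over the 10 libraries, with vehicle libraries in blue and AM6545 libraries in orange; bars are the medians. The cloud for vehicle replicate 1 is centred at 0.47, and the other 9 medians lie between -0.23 and 0.14.

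Relative to the mean of the other 9 libraries, vehicle replicate 1 was a median of 1.42-fold higher over the members, from 0.935-fold for Mrpl50 to 1.86-fold for Mrpl12. The ratio was above 1 for 77 members and over 1.5 for 20. Over all 10 libraries the ratio of a member's highest to its lowest normalised CPM was 1.24 to 2.32, with a median of 1.70. The 9 libraries without vehicle replicate 1 kept an order of their own, with AM6545 replicate 2 the highest for 41 members, vehicle replicate 4 for 15 and AM6545 replicate 5 for 13.

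Mrpl12 encodes the stalk protein that receives translation factors on the large subunit, and it showed the widest gap. Its normalised CPM was 138.2, 65.7, 78.2, 78.8 and 75.4 in vehicle replicates 1 to 5 and 68.1, 83.0, 74.3, 66.2 and 79.3 in AM6545 replicates 1 to 5. The first vehicle library lay far above the other 9, among which the groups overlapped. Mrps12, the gene for a protein of the decoding site on the small subunit, had 81.3, 38.2, 44.1, 43.5 and 45.5 normalised CPM in vehicle and 35.1, 53.6, 47.9, 39.0 and 53.1 in AM6545 replicates 1 to 5. It had the largest ratio of highest to lowest library of all members, 2.32, between vehicle replicate 1 and AM6545 replicate 1. Mrps18a, 1 of a family of 3 related genes with Mrps18b and Mrps18c, had 108.0, 57.5, 70.8, 72.5 and 68.8 normalised CPM in vehicle and 64.6, 74.4, 65.8, 62.8 and 72.9 in AM6545 replicates 1 to 5.

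Mrpl50 was the exception in this pattern. It encodes a large-subunit protein particular to mitochondria, and its normalised CPM was 60.1, 69.3, 63.3, 63.2 and 64.4 in vehicle and 59.1, 63.7, 55.9, 62.8 and 76.5 in AM6545 replicates 1 to 5. Vehicle replicate 1 was the third lowest of the 10 for this gene, and AM6545 replicate 5 the highest.

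The 4 members with the largest SD of log2 CPM over the 10 libraries, among those with a mean of at least 10 CPM, were Mrps12 at 0.34, Mrps6 at 0.34, Mrps24 at 0.33 and Mrpl34 at 0.31. Mrps6, for a protein of the small-subunit platform, ranged from 26.4 to 55.5 normalised CPM, and Mrps24 from 19.2 to 42.4, each highest in vehicle replicate 1. The smallest spread among the genes named here was that of Mrpl35, with an SD of 0.10 and 37.5 to 47.7 normalised CPM.

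Measured pair by pair, the correlation of log2 CPM over the 10 libraries averaged 0.70 among the members, against 0.00123 over all pairs of tested genes. These correlations are descriptions over 10 points, and all pairs share the same libraries, depth and scaling. Of 3003 pairs, 84.6% had r over 0.5, 66 had r under 0, and the median was 0.77. The highest r was 0.99, between Mrpl12 and Mrpl28, and the lowest was -0.37, between Mrpl50 and Mrpl4. Centring each group on its own mean left the average at 0.71, without vehicle replicate 1 it was 0.52, and without vehicle replicates 1 and 2 it was 0.44.

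Individual members differed in how closely they followed the rest. Mean r with the other 77 was highest for Mrpl55 at 0.82, Mrpl11 at 0.82, Mrps18a at 0.82 and Mrps14 at 0.81; Mrpl11 encodes a protein at the base of the stalk and Mrps14 a protein of the head of the small subunit. It was over 0.5 for 73 members. The 5 below were Mrpl33 at 0.45, Mrpl35 at 0.38, Mrpl1 at 0.34, Mrps2 at 0.32 and Mrpl50 at -0.05. Mrps2 encodes a small-subunit protein with a bacterial counterpart. Its normalised CPM was 48.1, 47.0, 43.4, 45.3 and 43.9 in vehicle and 42.9, 42.0, 36.2, 40.7 and 49.5 in AM6545 replicates 1 to 5. AM6545 replicate 5 was its highest library and vehicle replicate 1 the next. The median of the mean r was 0.73 to 0.75 in all 4 role groups.

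**Figure D3:**
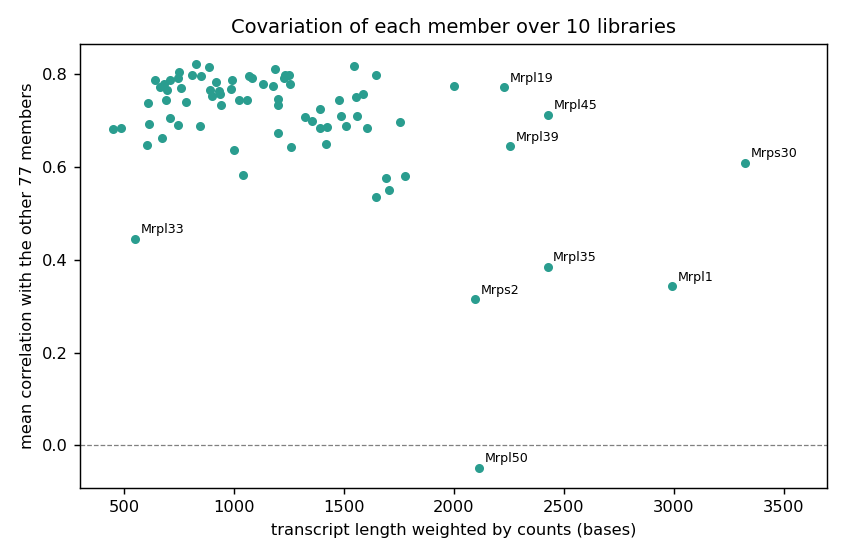
Mean correlation of each gene with the other 77 over the 10 libraries (vertical axis) against its transcript length in bases weighted by counts (horizontal axis), 1 point per gene. Most genes lie above 0.5 and under 2000 bases, while Mrpl50 lies at -0.05 and Mrps2, Mrpl1, Mrpl35 and Mrpl33 between 0.32 and 0.45.

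Promoter sequences are shown for 5 members: Mrpl50, which stood apart, and others whose mean r ran from 0.73 for Mrps11 to 0.82 for Mrps18a. Windows of 300 bases, from 250 before to 50 after the start of the gene, were taken from RefSeq (build GRCm38.p6) and found for 69 of the 78 members. Mrpl12 (ENSMUSG00000039640.8; chr11:120484387-120484686, plus strand) and Mrps18a (ENSMUSG00000023967.10; chr17:46110754-46111053, plus strand) had r of 0.99 with each other. Mrps12 (ENSMUSG00000045948.9; chr7:28741772-28742071, minus strand) had the largest range, and Mrps11 (ENSMUSG00000030611.11; chr7:78782881-78783180, plus strand) shares part of its window with that of another member, Mrpl46 (chr7:78783040-78783339, minus strand). Mrpl50 (ENSMUSG00000044018.4; chr4:49521034-49521333, minus strand) is the member of lowest mean r with the others. Each is printed 5′ to 3′ on the strand of the gene, with capitals for matches to the 3 patterns given after the sequences.
Mrpl12: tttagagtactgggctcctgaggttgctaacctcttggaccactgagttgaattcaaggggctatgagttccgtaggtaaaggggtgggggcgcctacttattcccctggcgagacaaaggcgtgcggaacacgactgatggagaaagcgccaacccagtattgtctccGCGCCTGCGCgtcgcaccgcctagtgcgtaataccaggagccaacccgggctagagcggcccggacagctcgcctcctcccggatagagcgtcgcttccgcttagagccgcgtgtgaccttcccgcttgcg
Mrps18a: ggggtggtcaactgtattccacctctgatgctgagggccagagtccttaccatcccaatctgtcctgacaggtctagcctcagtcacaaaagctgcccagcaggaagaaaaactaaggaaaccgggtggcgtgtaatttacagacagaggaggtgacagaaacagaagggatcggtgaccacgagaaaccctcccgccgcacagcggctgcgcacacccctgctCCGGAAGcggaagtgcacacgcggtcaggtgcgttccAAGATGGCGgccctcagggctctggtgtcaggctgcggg
Mrps12: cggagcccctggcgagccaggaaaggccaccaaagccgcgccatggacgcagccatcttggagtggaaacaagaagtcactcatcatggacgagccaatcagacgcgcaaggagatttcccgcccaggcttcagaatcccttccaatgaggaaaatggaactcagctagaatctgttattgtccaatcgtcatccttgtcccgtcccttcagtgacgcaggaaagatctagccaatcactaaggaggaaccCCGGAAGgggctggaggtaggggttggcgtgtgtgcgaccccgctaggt
Mrps11: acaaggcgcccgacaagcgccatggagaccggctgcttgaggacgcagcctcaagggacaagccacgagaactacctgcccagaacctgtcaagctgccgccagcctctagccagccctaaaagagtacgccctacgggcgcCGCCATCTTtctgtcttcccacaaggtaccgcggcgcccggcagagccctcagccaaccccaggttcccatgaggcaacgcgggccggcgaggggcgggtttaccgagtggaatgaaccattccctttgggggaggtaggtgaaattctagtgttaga
Mrpl50: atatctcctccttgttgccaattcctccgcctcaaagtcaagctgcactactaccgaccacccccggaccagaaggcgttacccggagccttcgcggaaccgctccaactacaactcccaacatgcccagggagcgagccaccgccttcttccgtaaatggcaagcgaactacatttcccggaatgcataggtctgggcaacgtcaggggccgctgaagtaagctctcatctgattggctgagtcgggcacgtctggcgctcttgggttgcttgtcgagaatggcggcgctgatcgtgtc

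The patterns, searched on both strands, were GCGC, any 1 base and TGCGC in a row for NRF1 (nuclear respiratory factor 1, known as a regulator of nuclear genes for mitochondrial proteins), CCGGAAG for the ETS family, and AAGATGGCG for YY1. CCGGAAG or its reverse complement was in 34.7% of the 75 member windows and in 8.86% of all 32851 windows of the same length. The NRF1 pattern was in 17.3% against 4.60%, and AAGATGGCG in 10.7% against 1.40%. At least 1 of the 3 was in a window of 41 of the 69 matched members (59.4%). The share of all single windows was 13.6%, which is not a like measure, since some members have several windows. Counted per gene, CCGGAAG was in 37.7% of matched members and 9.86% of other genes. The NRF1 pattern was in 18.8% and 5.15%, and AAGATGGCG in 11.6% and 1.61%. GGGCGG, the core of the SP1 pattern, was in 52.0% of member windows and 35.7% of all windows, and TATAAA in 6.67% and 13.6%. Apart from 2 NRF1 matches in Mrps26 that overlap each other, no matches of the 3 patterns overlapped in the member windows.

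In the printed windows, Mrpl12 holds an NRF1 match from base 170, Mrps18a an ETS match from base 225 and a YY1 match from base 262, Mrps12 an ETS match from base 252 and Mrps11 a YY1 match from base 143, counted from the 5′ end. The window of Mrpl50 holds none of the 3. Nor do those of Mrpl55, Mrpl11 and Mrps14, not printed here, which were among the members of highest mean r, at 0.82, 0.82 and 0.81. A match is a description of the letters and not a measured site. The median of the mean r was 0.73 for the 41 members with a match and 0.74 for the 28 without, so the presence of these letters did not go with closer covariation among the members.

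Member transcripts were short. The median length weighted by counts was 1155 bases, against 2657 bases over all tested genes, and 69 of the 78 were under 2000 bases; the median GC content was 51.1% against 50.3%. Other short genes shared the course over the libraries. Among transcripts under 1000 bases the median deviation in vehicle replicate 1 was 0.50 for the 33 members and 0.49 for 951 other genes, and vehicle replicate 1 was the highest library for 93.9% and 72.5% of them. From 1000 to 2000 bases it was 0.41 for 36 members and 0.28 for 3584 other genes, with 94.4% and 54.7% highest there. From 2000 to 4000 bases it was 0.24 for 9 members and -0.10 for 6465 other genes, with 55.6% and 10.5% highest there, and no member was longer. In each class the members' median lay above that of the other genes, with the widest gap among the longest members; this difference was not tested.

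**Figure D4:**
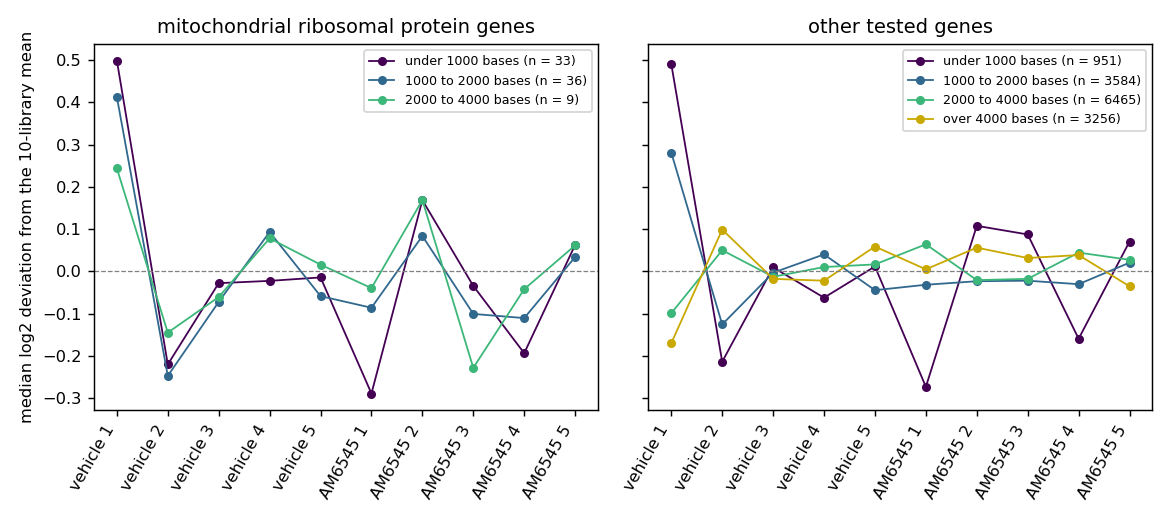
Median deviation of log2 CPM from each gene's mean over the 10 libraries, by library, for the member genes (left) and the other tested genes (right), with 1 line per class of transcript length in bases. Genes under 1000 bases peak in vehicle replicate 1 in both panels, at 0.50 and 0.49, and the classes over 2000 bases peak there only among the members.

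Pairwise correlation by length class gave another view of the same values. Under 1000 bases the average r was 0.84 for the members and 0.47 for the other genes, from 1000 to 2000 bases 0.76 and 0.18, and from 2000 to 4000 bases 0.51 and 0.04. Without vehicle replicate 1 these were 0.71 and 0.32, 0.54 and 0.05, and 0.54 and 0.03. Across the 78 members, which are not independent of each other, Spearman's rho between length and the ratio of vehicle replicate 1 to the other libraries was -0.50, and that between GC content and the same ratio was 0.68. By GC content, the median deviation in vehicle replicate 1 rose from 0.25 for the 8 members under 45% to 0.61 for the 18 members over 55%, and among other genes under 2000 bases from 0.17 to 0.41. The part of transcript length and GC content in the members' covariation was not tested.

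Markers of other cell types were also uneven between libraries. Summed normalised CPM of 12 choroid plexus and ependymal markers was 76.3 to 5063 in vehicle and 672 to 4048 in AM6545 libraries, with the highest value in vehicle replicate 1 and the lowest in vehicle replicate 4. Of 11 endothelial and pericyte markers it was 85.3 to 180 and 87.6 to 145, and of 10 microglial markers 919 to 1320 and 910 to 1269, both again highest in vehicle replicate 1. Red blood cell markers (5 genes) summed to 285 to 896 and 329 to 1334, oligodendrocyte markers (10 genes) to 14613 to 21146 and 12412 to 28453, and astrocyte markers (10 genes) to 4242 to 4765 and 3710 to 5244. The 12 synaptic and hippocampal markers summed to 8779 to 10932 and 9024 to 10194, lowest in vehicle replicate 1. No marker of any list was at 0 in any library. The median r with the members' mean was 0.29 for the endothelial list, 0.20 for the microglial, 0.15 for the red blood cell and 0.06 for the choroid plexus list. It was -0.34 for the oligodendrocyte list, -0.55 for the synaptic list and -0.71 for the astrocyte list. The part of cell makeup in the members' values was not tested. In such bulk libraries, fewer endings or cells of a type and less RNA in each cannot be told apart.

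The other genes of the pathway followed the members to different degrees. Correlation with the members' mean profile had a median of 0.85 over 80 cytoplasmic ribosomal protein genes, of which 71 had r over 0.7, and of 0.78 over 84 nuclear oxidative phosphorylation genes, of which 57 did. Among themselves, these lists had average pairwise r of 0.85 and 0.60. The 13 protein genes of mitochondrial DNA, the templates that mitoribosomes translate, had an average r of 0.75 among themselves but a median of 0.09 with the members' mean, and none had r over 0.7. The median r with the members' mean was 0.59 for 23 genes of mitoribosome assembly, 0.63 for 14 mitochondrial translation factors, 0.21 for 20 genes that charge mitochondrial transfer RNAs and -0.35 for 15 genes of mitochondrial transcription and biogenesis. Of 5 mitoribosomal proteins that carry other names, Gadd45gip1 had r of 0.94 with the members' mean, Aurkaip1 0.87, Chchd1 0.80, Dap3 0.70 and Ptcd3 -0.07.

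The comparison of AM6545 with vehicle asked whether sub-chronic treatment was accompanied by a different level of these mRNAs. No member passed edgeR's quasi-likelihood test with Benjamini-Hochberg adjustment at 0.05, where the background was 0% of the 14358 genes tested. At an unadjusted p under 0.05 there were also 0 members, against 1.88% of all tested genes; the smallest unadjusted p was 0.115 and the smallest adjusted p 0.999828 in this edgeR test. DESeq2 and limma-voom also called 0 members. The groups overlapped for every member, while 0.293% of all tested genes had groups that did not overlap. The fitted log2 fold changes ranged from -0.27 for Mrpl34 to 0.04 for Mrpl1, with standard errors of 0.0901 to 0.189, so none lay beyond 2 standard errors.

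The signs were mostly on 1 side. The log2 fold change, AM6545 over vehicle, was below 0 for 70 of the 78 members, against 51.9% of all tested genes, with a median of -0.08 against -0.01. It was below 0 for all 26 small-subunit genes and for 43 of the 51 large-subunit genes. By site, it was below 0 for all 5 of the stalk and its base and all 6 around the exit tunnel. Of the 6 in the central protuberance, another part of the large subunit, 4 were below 0 and 2 above. These values rest on 1 library: without vehicle replicate 1 the member median was 0.03 and 25 of 78 were below 0. Without vehicle replicate 2, the lowest library for many members, the median was -0.14, 76 were below 0, and Mrps18b, Mrps11, Mrps7 and Mrpl53 had unadjusted p under 0.05, with none under 0.05 after adjustment. The members share those libraries, so the 78 signs are not separate pieces of evidence. Other short genes had the same tendency, since 80.7% of those under 1000 bases and 70.1% of those from 1000 to 2000 bases were below 0, against 93.9% and 88.9% of the members in those classes.

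**Figure D5:**
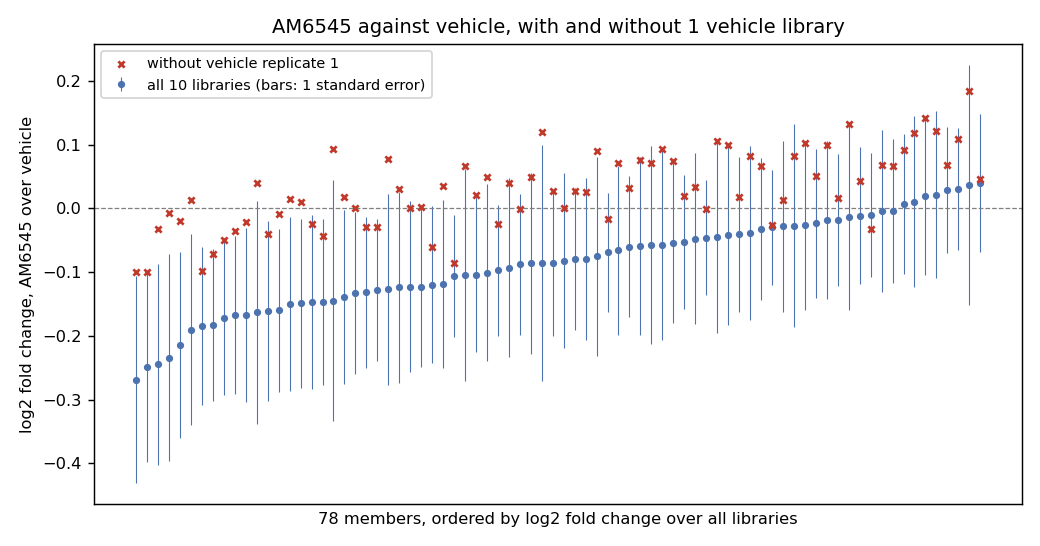
Log2 fold change of AM6545 over vehicle for the 78 genes, ordered from lowest to highest, fitted on all 10 libraries (circles, with bars of 1 standard error) and without vehicle replicate 1 (crosses). With all libraries 70 values lie below 0, and without vehicle replicate 1 only 25 do.

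The members of smallest p on the lower side were Mrpl53, Mrpl34, Mrps11 and Mrpl58. Mrpl53, for a large-subunit protein particular to mitochondria, had 41.9, 24.2, 27.4, 29.0 and 27.9 normalised CPM in vehicle and 19.1, 29.5, 25.9, 23.2 and 29.1 in AM6545 replicates 1 to 5. Its log2 fold change was -0.25 (SE 0.149, unadjusted p = 0.115, adjusted p = 0.999828 by edgeR), with an interval of 2 standard errors from -0.55 to 0.05. Apart from the first vehicle library the groups lay over each other, and without that library the value was -0.10. Of the 31-base words in the annotated transcripts of Mrpl53, 84.4% also occur in other genes, most often in the overlapping gene model Gm42688. The counts of Mrpl53 therefore depend on how reads were divided among them.

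Mrpl34, for a large-subunit protein with a bacterial counterpart, had 23.3, 12.8, 15.9, 14.7 and 14.1 normalised CPM in vehicle and 10.1, 15.7, 14.7, 11.9 and 14.6 in AM6545 replicates 1 to 5, a log2 fold change of -0.27 (SE 0.162). Mrps11, for a protein of the small-subunit platform, had 46.4, 22.0, 28.1, 26.6 and 26.8 in vehicle and 25.3, 24.7, 25.7, 23.2 and 27.5 in AM6545, a log2 fold change of -0.24 (SE 0.157). For both genes vehicle replicate 1 was the highest library. Of the other vehicle values of Mrpl34, that of replicate 3 lay just above the AM6545 values and the rest among them. For Mrps11, replicate 3 lay above and replicate 2 below all AM6545 values. Without vehicle replicate 1 the log2 fold change was -0.10 for Mrpl34 and -0.03 for Mrps11. Mrpl58 encodes a peptidyl-tRNA hydrolase that is built into the large subunit and can release stalled peptides. It had 61.4, 39.97, 43.7, 45.6 and 45.7 normalised CPM in vehicle and 37.2, 46.2, 39.7, 38.5 and 46.8 in AM6545, a log2 fold change of -0.18 (SE 0.119), which was -0.07 without vehicle replicate 1.

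On the higher side the values were near 0. Mrpl1, with 26.4, 24.5, 22.3, 27.9 and 28.3 normalised CPM in vehicle and 25.5, 30.8, 22.3, 25.7 and 28.7 in AM6545 replicates 1 to 5, had a log2 fold change of 0.04 (SE 0.108). Mrpl9 had a log2 fold change of 0.03 (SE 0.0962), Mrpl3, for a protein near the catalytic centre, 0.03 (SE 0.0986), and Mrpl52 0.04 (SE 0.188). The AM6545 values of Mrpl9 spanned only 38.9 to 40.7 normalised CPM, and its vehicle values 35.0 to 47.7. None of these 4 differed beyond its standard error.

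The remaining genes named by role gave no call either. In the stalk, Mrpl12 had a log2 fold change of -0.23 (SE 0.163) and Mrpl10, which anchors the Mrpl12 copies, -0.07 (SE 0.0934). Mrpl44, for a protein related to ribonuclease III on the large subunit, had -0.12 (SE 0.134), and Mrps12 had -0.14 (SE 0.189). In the Mrps18 family the values were -0.15 (SE 0.137) for Mrps18a, -0.18 (SE 0.124) for Mrps18b and -0.03 (SE 0.159) for Mrps18c. Mrps30 had 0.02 (SE 0.131) and Mrps36 -0.08 (SE 0.138). Without vehicle replicate 1 the value was 0.09 for Mrps12, 0.01 for Mrps18a, -0.10 for Mrps18b and -0.01 for Mrpl12.

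Mrps18b and Mrps18c, whose products sit in the small subunit, differed in level and course from Mrps18a. Mrps18b had 46.0, 26.6, 39.3, 41.1 and 33.4 normalised CPM in vehicle and 32.2, 31.5, 33.4, 34.8 and 32.2 in AM6545 replicates 1 to 5. The AM6545 values were closely grouped, and 4 of the 5 vehicle values lay at or above 33.4, with vehicle replicate 2 lowest of all. Mean r with the other members was 0.58 for Mrps18b and 0.69 for Mrps18c. Per length, the mean level over the 10 libraries was 156 for Mrps18a, 64.8 for Mrps18b and 71.2 for Mrps18c in TPM.

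Of the other genes of the pathway, none in any list passed the same edgeR test after adjustment. The median log2 fold change was -0.07 over the 80 cytoplasmic ribosomal protein genes, of which 68 were below 0, and -0.05 over the 84 nuclear oxidative phosphorylation genes, of which 62 were. It was -0.07 over the 13 protein genes of mitochondrial DNA, -0.07 over 23 assembly genes, 0.04 over 14 translation factors, 0.07 over 15 genes of mitochondrial transcription and biogenesis and -0.00251 over 20 genes that charge transfer RNAs. Dap3, for a small-subunit protein that binds GTP, had 114 ± 20.2 normalised CPM with vehicle and 112 ± 14.5 with AM6545 (SD, n = 5 each), and Ptcd3, for an RNA-binding protein of the small subunit, 61.5 ± 7.55 and 66.5 ± 7.55.

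At transcript level, 343 transcripts of the members were listed, 320 had a count in some library and 211 passed the filter. None of the 211 passed edgeR's quasi-likelihood test with Benjamini-Hochberg adjustment, against a background of 0.00314% of 31848 transcripts. At an unadjusted p under 0.05 there was 1, against 1.97% of all transcripts tested. This was Mrpl24-203, a protein-coding transcript with a mean of 16.7% of the counts of its gene, at 64.5, 155, 76.1, 102 and 213 estimated counts in vehicle and 242, 207, 154, 234 and 133 in AM6545 replicates 1 to 5. The groups overlapped, and its log2 fold change was 0.70 (SE 0.297, unadjusted p = 0.0395, adjusted p = 0.999914 by edgeR). On the lower side the smallest p-values belonged to Mrpl2-202, with a log2 fold change of -0.88 (SE 0.404), and Mrps15-202, with -0.61 (SE 0.301), both from few reads, at 6.84 to 52.2 and 7 to 20.2 counts per library.

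Protein-coding transcripts took 87.0% of the member counts, retained-intron transcripts 5.58%, nonsense-mediated decay transcripts 4.57% and other processed transcripts 2.89%. The protein-coding share lay between 86.2 and 87.7% in every library. The top transcript held over 90% of the counts of 36 genes and under 50% of those of 7. For 6 genes most counts went to transcripts not annotated as protein-coding, at 88.3% for Mrps24, 82.1% for Mrpl32, 79.7% for Mrps16, 68.1% for Mrps26, 58.3% for Mrpl3 and 50.7% for Mrpl15. For Mrps24, a gene for a small-subunit protein at the entry of the messenger RNA, a single retained-intron transcript held 83.1% of the counts, and for Mrpl3 a single nonsense-mediated decay transcript held 56.6%. Of the 65 members with any such counts, none had noncoding shares that did not overlap between the groups, a count not made over all genes. Overlap does not mean equal means. The noncoding share of Mrpl21 was 15.5 ± 3.7% with vehicle and 6.6 ± 3.0% with AM6545 (SD, n = 5 each). That of Mrpl17 was 16.7 ± 1.2% and 19.6 ± 2.1%. Both genes were picked from the 65 members after these shares were seen, and the differences were not tested. The division between transcripts is an estimate, and 5 transcripts, of Mrpl36, Mrpl42, Mrpl24, Mrpl20 and Mrps23, were listed at 0 in 1 library and at over 100 counts in another.

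Many members lie close to other genes, which bears on how their reads can be assigned. In GENCODE M21, exons of 33 members overlap an exon of another gene, on the opposite strand for 28 of them, and the use of strand in the counting is not given in the sources used here. For 7 members over 20% of 31-base words recur in other genes. Besides Mrpl53, these include Mrps34 at 35.6%, shared most often with Nme3, and Mrpl27 at 35.5%, most often with the gene model Gm6304. The values of these members are therefore less certain than those of the 30 members with at most 1% of words shared.

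Neighbours transcribed away from the member were sought in GENCODE M21, with starts at most 1000 bases apart. Pairs whose starts lie past each other, so that the genes overlap there, were not counted. Such a neighbour was found for 18 of the 78 members (23.1%), against 9.26% of the other tested protein-coding genes. The correlation of member and neighbour over the 10 libraries had a median of 0.27. It was 0.86 for Mrps27 and Ptcd2, an RNA-binding protein gene 81 bases away, 0.76 for Mrpl49 and Fau, which encodes a cytoplasmic ribosomal protein, and 0.70 for Mrpl32 and Psma2, a proteasome gene. It was 0.22 for Mrps12 and Sars2, the gene of the mitochondrial seryl-tRNA synthetase 172 bases away, and -0.76 for Mrps18b and Ppp1r10. With the mean of the other members, r was 0.88 for Ptcd2, 0.94 for Fau, 0.91 for Psma2, 0.35 for Sars2 and -0.77 for Ppp1r10. Each of these lay further from 0 than r with the paired member, so the pair values were not particular to the pairs. Mrpl50 and its neighbour Zfp189 had r of 0.33, and Zfp189 had r of -0.61 with the members' mean, also apart from the common course. Mrps11 and Mrpl46, the members whose promoter windows overlap, are not among the 18. They had r of 0.77, at the median of all member pairs.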

How the data were processed

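Total RNA of hippocampal synaptoneurosomes from 5 vehicle and 5 AM6545 libraries was used, with groups and replicate numbers taken from the sample titles. The authors deposited estimated counts per gene (22255 rows) and per transcript (102392 rows); per the submitters' processing notes, Salmon 1.5.2 and the mm10 build were used. The annotation release, strand setting and filters are not given in the sources used here. Totals of 18106112 to 25899794 counts per library, without molecular identifiers, set the precision.

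Estimated counts were rounded, filtered with filterByExpr (at least 10 counts, 15 in total), scaled by TMM and tested with edgeR 4.0.16 (R 4.3.3; robust quasi-likelihood, group as the only term, all 10 libraries, two-sided), with Benjamini-Hochberg adjustment over 14358 genes or 31848 transcripts at a threshold of 0.05. Normalised CPM uses TMM library sizes; log2 CPM adds a prior count of 2. Levels per length (TPM) divide each transcript count by its GENCODE M21 length (101527 transcripts matched), not an effective length. The resulting rates were summed by gene and scaled to the same total in every library. Motif and covariation values are descriptions without a test. The shared replicate numbers were not taken as pairs: deviations of same-numbered libraries had r of -0.14, -0.19, 0.23, 0.39 and 0.06.

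The members and gene lists were chosen with earlier results of these data known. Named members are the 6 highest and 6 lowest per length, the 4 of smallest p in each direction, the 4 of largest SD, the 4 highest and 2 lowest in mean correlation, and 10 chosen for their role. Alternatives were other scalings and filters, DESeq2 1.42.0, limma-voom (limma 3.58.1), a replicate block and leaving out each library. Mitochondrial ribosomal RNAs were not analysed here, and of 24 assembly genes listed 23 were tested.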

Additional observations from a re-analysis of the deposited data

Results flagged for a closer look

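In 10 of 68 groups of 5 libraries examined, 1 library lay apart from the other 4. The gap exceeded Dixon's 95% limit (0.710 of the group's range). Chance flags about 1 in 20, or 3.4 of 68, only where groups are not picked by their values. Many of the named members were picked by SD, p or correlation in these same libraries, and the groups share libraries. The 10 can therefore not be read against the 3.4. The library that lay apart was vehicle replicate 1, as the highest, each time. The share of all counts held by the 78 members was 0.461% there, against 0.323 to 0.353% in the other vehicle libraries. Of the named members, Mrpl12 had 138.2 normalised CPM there against 65.7 to 78.8 in the other 4 vehicle libraries, Mrpl42 had 92.2 against 55.4 to 61.4, and Mrpl41 had 88.2 against 56.2 to 64.7. Mrps12 had 81.3 normalised CPM against 38.2 to 45.5, Mrpl11 had 67.8 against 42.8 to 49.6, and Mrpl58 had 61.4 against 39.97 to 45.7. Mrpl9 had 47.7 normalised CPM against 35.0 to 38.5, Mrps11 had 46.4 against 22.0 to 28.1, and Mrpl53 had 41.9 against 24.2 to 29.0.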

How the results depend on the processing

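The count of members called was 0 under every alternative run, as was that of member transcripts. The median log2 fold change of the members (-0.08) ran from -0.14 to 0.03 with 1 library left out, 0.03 being the value without vehicle replicate 1, and was -0.05 by limma-voom, where 55 members were below 0. With the replicate number as a block it was -0.07, with 68 members below 0 and 0 called. The mean pairwise correlation (0.70) ran from 0.52 to 0.72 with 1 library left out and was 0.44 without vehicle replicates 1 and 2 together, an alternative chosen after seeing the data. The median level per length was 56.6 with the longest transcript of each gene. Of the fold changes followed for 17 named members, those of Mrpl12, Mrpl34, Mrpl53, Mrpl58, Mrps11 and Mrps18b kept their sign in all 18 alternatives; without vehicle replicate 1 they were -0.01, -0.10, -0.10, -0.07, -0.03 and -0.10. By limma-voom Mrpl52 was -0.00508 and Mrpl10 was 0.0055 (log2). With 1 library left out, log2 values ran from -0.0174 to 0.0962 for Mrpl1, -0.0165 to 0.0747 for Mrpl3, -0.00785 to 0.109 for Mrpl9, -0.0872 to 0.184 for Mrpl52, -0.197 to 0.000541 for Mrpl44, -0.23 to 0.0927 for Mrps12, -0.233 to 0.0142 for Mrps18a, -0.132 to 0.0824 for Mrps18c, -0.0503 to 0.122 for Mrps30 and -0.164 to 0.00223 for Mrps36. The cause of these sign changes was not tested. Each member had at least 130 counts in every library.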

Other observations

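The genes outside the family whose profile over the 10 libraries was most like the members' mean were Psmb3 (r = 0.992), Psmg1 (0.990), Sod1 (0.988), Psmb1 (0.987) and Nme1 (0.986), a measure taken over 10 libraries that share depth and scaling. Psmb3 and Psmb1 encode subunits of the proteasome core, Psmg1 a chaperone of its assembly, Sod1 the copper-zinc superoxide dismutase and Nme1 a nucleoside diphosphate kinase. Psmb3 had 179, 86.1, 104, 120 and 109 normalised CPM in vehicle and 99.7, 129, 107, 100.1 and 120 in AM6545 replicates 1 to 5. As for Mrpl12, its highest library was vehicle replicate 1 and the next AM6545 replicate 2. Without vehicle replicate 1, r was still 0.976 for Psmb3, 0.975 for Psmg1 and 0.978 for Psmb1. In all, 319 of 14280 other tested genes (2.23%) had r over 0.9 with the members' mean, and 167 had r under -0.9.

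Among the partner genes, 2 of 20 that charge mitochondrial transfer RNAs had an unadjusted p under 0.05 in edgeR's quasi-likelihood test, against 1.88% of all tested genes, and neither passed after adjustment. No gene of the other partner lists had, and this list was picked out after its values were seen. Aars2, the mitochondrial alanyl-tRNA synthetase, had 17.3, 21.7, 17.5, 20.1 and 17.9 normalised CPM in vehicle and 25.03, 23.5, 17.9, 24.8 and 28.8 in AM6545 replicates 1 to 5, a log2 difference of 0.35 (SE 0.123, unadjusted p = 0.0123). Vars2, the mitochondrial valyl-tRNA synthetase, had a log2 difference of 0.29 (SE 0.135, unadjusted p = 0.0444), with 5.34 to 8.34 normalised CPM in vehicle and 8.06 to 10.04 in AM6545 libraries.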
